A study of Mus musculus with 4 samples.

Results

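Kit, its ligand gene Kitl, the tryptophan-degrading genes Ido1, Tdo2, Kmo and Kynu, the receptor gene Ahr and the transcription factor genes Trp53 and Sp1 were followed through the cells of mouse prostate tumours. The 9 genes were taken by symbol from the 32285 genes in the count files. Droplet-based single-cell RNA sequencing had been run on tumours of 2 genotypes, with 2 libraries each. TKO tumours carried a tamoxifen-inducible Cre that acts in prostate epithelium, together with floxed alleles that include Smad4 and with floxed Pygo2. DKO tumours carried the same Cre and the same floxed alleles without floxed Pygo2, so the deletions of the DKO tumours are shared by both genotypes. The series design names 10 and 17 weeks after tamoxifen without tying a library to either time, and no ages appear in the labels. The labels also do not state whether 2 libraries of one genotype stem from different mice. Each p-value therefore speaks only of library-to-library spread, part of which may be technical.

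Kit is a receptor tyrosine kinase that is activated by stem cell factor, the product of Kitl. It is known for its roles in blood progenitors, mast cells, germ cells and pigment cells. Ido1 and Tdo2 encode the enzymes that open the indole ring of tryptophan, and the product is converted to kynurenine. Kmo then hydroxylates kynurenine and Kynu cleaves it and its hydroxylated form. Kynurenine is a ligand of the aryl hydrocarbon receptor encoded by Ahr, and in tumours the pathway is known for restraining T cells. Trp53 encodes the tumour suppressor p53, and Sp1 a zinc finger factor that binds GC-rich promoter boxes. The study behind these files placed p53 and Sp1 between Pygo2, a chromatin reader of the Wnt pathway, and Kit and Ido1 in the tumour cells. The question for these data is in which cells each gene was read, and whether its level differed between the genotypes.

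The sequences upstream of Kit and Trp53 are shown because Sp1 is named as a regulator in that chain, and capitals mark the GC box GGGCGG, searched with its reverse complement CCGCCC on both strands. They come from RefSeq (GRCm38.p6) and stop before the annotated transcripts begin. The Kit stretch is chr5:75574737-75574915, plus strand, 179 bases with 69.3% G or C. The Trp53 stretch is chr11:69580109-69580358, plus strand, 250 bases with 52.8% G or C.
Kit: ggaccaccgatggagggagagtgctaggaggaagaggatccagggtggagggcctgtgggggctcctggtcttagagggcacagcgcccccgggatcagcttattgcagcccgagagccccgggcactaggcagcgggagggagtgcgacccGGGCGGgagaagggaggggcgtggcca
Trp53: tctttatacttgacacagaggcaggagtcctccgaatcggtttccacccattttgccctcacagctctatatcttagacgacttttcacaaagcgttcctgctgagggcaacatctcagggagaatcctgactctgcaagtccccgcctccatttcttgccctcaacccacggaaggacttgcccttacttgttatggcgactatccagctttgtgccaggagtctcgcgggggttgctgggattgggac
The Kit stretch holds 1 GC box, whose first base is at 75574889, and the Trp53 stretch holds 0. Of 27025 mouse promoters of 250 bases, 32.9% hold at least 1 GC box, so its presence before Kit is a common feature. RefSeq promoters were matched for 6 of the 9 genes, and not for Ido1, Kynu and Ahr. In 250 bases Sp1 held 4 GC boxes, Kitl 3, Kit 1, and Kmo and Tdo2 0. These windows end at RefSeq starts, which differ from the gene starts given below. Those of Kit, Kitl and Sp1 run past the gene start, and those of Kmo and Tdo2 lie inside the gene.

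The 4 libraries held 3508 barcodes, of which 3381 were kept: 1208 and 797 cells in TKO replicates 1 and 2 and 617 and 759 in DKO replicates 1 and 2. Retained cells held 9167770 to 18360201 unique molecular identifiers (UMIs, counted molecules) per library, with medians of 8404 to 10310 UMIs per cell. No barcode was shared between libraries. The hashtag of its own library was highest in all 1232 and 823 TKO barcodes and all 638 and 815 DKO barcodes. Hashtagged samples were combined before sequencing libraries were made, so each library here may be a sample split from a pool by tag. Such a split would leave no shared barcodes. Cells were clustered without the 9 genes and named from marker lists. Levels are given as CPM, the UMIs of a gene divided by all UMIs of the class in that library and set to the usual scale of that unit. The epithelial-like share of cells was 4.30% and 3.26% in TKO replicates 1 and 2, against 5.67% and 11.6% in DKO replicates 1 and 2. They carried the keratin gene Krt8 in 46 of 52, 25 of 26, 32 of 35 and 83 of 88 cells (TKO replicates 1 and 2, then DKO replicates 1 and 2). The prostate gene Hoxb13 was read in 14, 9, 10 and 24 of them. The leukocyte gene Ptprc was read in 14, 7, 6 and 21 of them. Whether these are the cells with Kit or Ido1 was not tested. The prostate secretory gene Msmb was at 0 UMIs in all 4 libraries. TKO replicate 1 stood apart: seminal vesicle secretion genes (7 Svs genes) took 10.0% of its epithelial-like UMIs, against 0.006% in TKO replicate 2 and 0.011% and 0.004% in DKO replicates 1 and 2. Co-detection counts, fitted differences and list medians of epithelial-like cells are therefore also given without it.

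Pygo2, the gene whose allele separates the genotypes, gave 25 and 4 UMIs in the epithelial-like cells of the TKO libraries and 10 and 33 in those of the DKO libraries. Its CPM was 16.0 and 7.24 in TKO, against 8.96 and 8.70 in DKO, so the groups overlapped. Which exons were floxed is not stated in the labels used here, and a 3-prime tag that lies outside them cannot check the deletion or the genotype labels.

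Kit (ENSMUSG00000005672, mm10 chromosome 5, 75574916 to 75656722, plus strand) was read mainly in dendritic cells. Its 1647 UMIs came to 54.0% from dendritic-like cells, which were 6.63% of all cells, and to 7.04% from epithelial-like cells. Among 12 classes it was highest in Ccr7 dendritic-like cells, the state in which dendritic cells migrate to lymph nodes, with 188 and 289 CPM in the TKO libraries and 318 and 268 CPM in the DKO libraries. At least 1 Kit UMI was found in 32 of these 35 cells. Type 2 dendritic-like cells, led by Cd209a, Mgl2 and Clec10a, came next with 103 and 128 CPM in TKO and 114 and 147 CPM in DKO, and 134 of 189 cells were positive. NK-like cells followed with 84.9 and 34.2 CPM in TKO and 65.5 and 79.7 CPM in DKO, and 47 of 186 were positive. These 3 classes did not overlap one another in any library. From NK-like cells downward each class overlapped its neighbour: an unnamed cluster led by Il1rl1 and Tnfrsf4 averaged 21.6 ± 9.36 CPM, epithelial-like cells 14.2 ± 5.61 and T-like cells 10.5 ± 4.40 (SD over 4 libraries). Plasmacytoid dendritic-like cells held only 5 Kit UMIs in 43 cells. Neutrophil-like cells, which should lack Kit, gave a background of 1.95% and 1.42% positive cells in TKO and 4.45% and 2.42% in DKO. Their median depth was 6950.5 and 6133 UMIs in TKO and 7172 and 6704 UMIs in DKO, below that of the classes above.

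**Figure D1:**
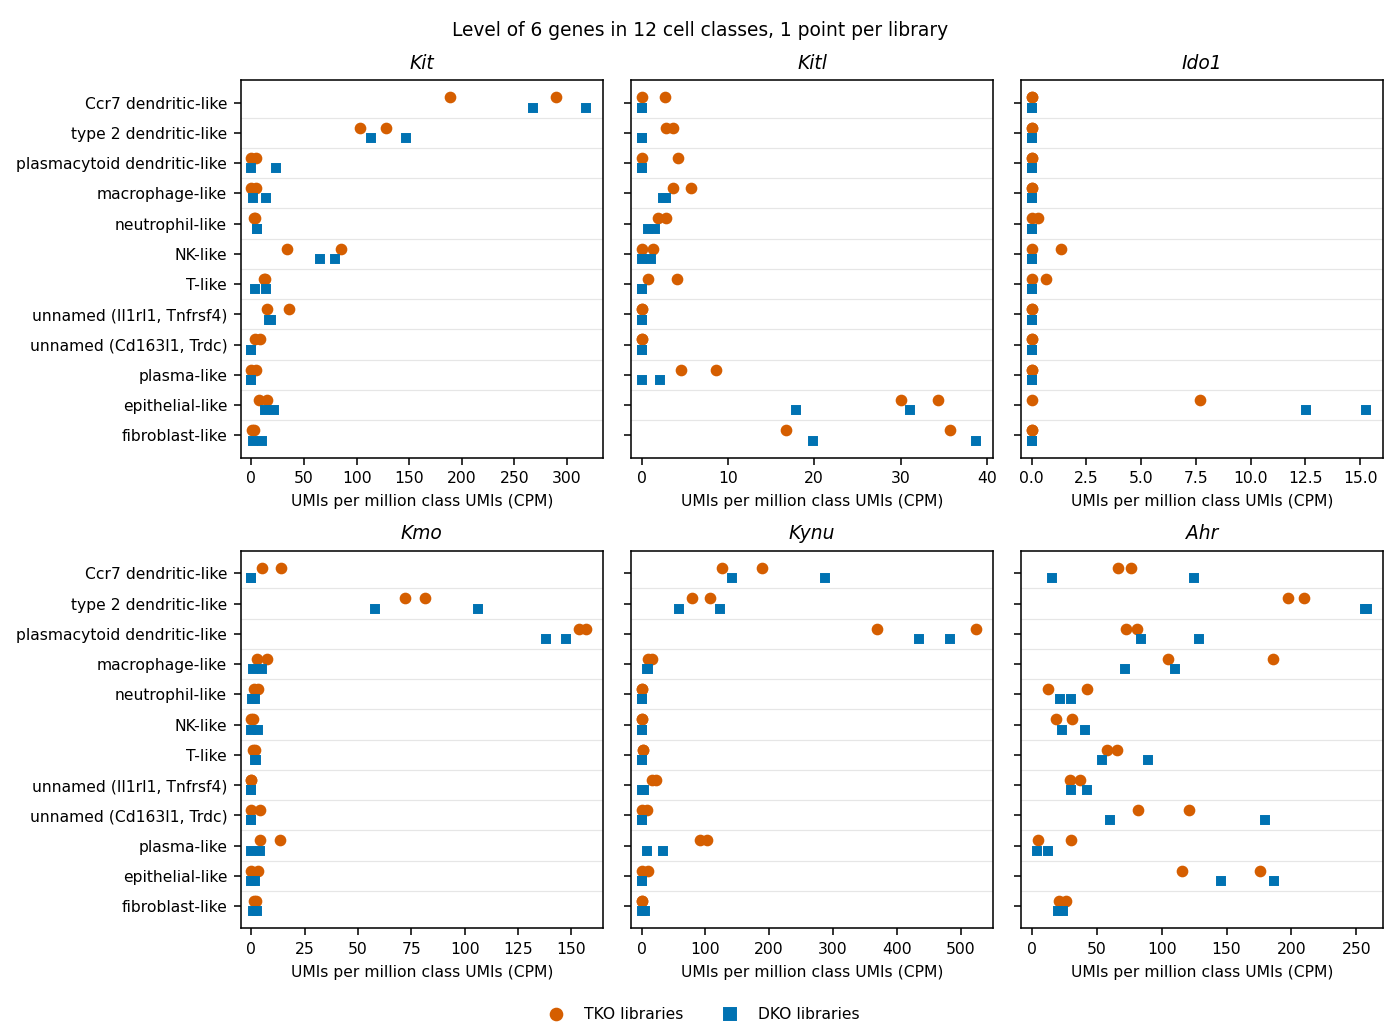
Level of 6 genes (panels) in 12 cell classes (rows), as CPM on the horizontal axis, with 1 point per library (TKO and DKO in different colours and marks). Kit is highest in Ccr7 dendritic-like cells at 188 to 318 CPM, Kmo and Kynu in plasmacytoid dendritic-like cells, Ido1 in epithelial-like cells, and in each case the points of both genotypes lie together in the leading class, except for Ido1 at 0 in TKO replicate 2.

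Kit was also high in 2 classes too small for the comparison. ILC2-like cells, innate lymphocytes that make type 2 cytokines, numbered 13, 10, 3 and 4 and were positive in 12, 8, 3 and 3 cells (TKO replicates 1 and 2, then DKO replicates 1 and 2), with 188 and 239 CPM in TKO and 195 and 208 CPM in DKO. Basophil- and mast-like cells numbered 14 in all, and 2 of them held all 80 Kit UMIs of the class, 30 in a TKO replicate 1 cell and 50 in a DKO replicate 1 cell. These were the only 2 with the mast cell chymase gene Cma1, at 4 and 97 UMIs in the same order. The other 12 had 0 Kit UMIs, so the class was mostly without Kit.

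Dendritic-like cells were clustered again on their own, a step chosen after the data were seen, and Kit differed between the groups that formed. The Ccr7 group (33 cells, led by Fscn1 and Cacnb3) held 193 and 289 CPM in TKO and 318 and 268 CPM in DKO. A group led by Ccl17 and Mmp12 (49 cells) held 162 and 251 CPM in TKO and 159 and 223 CPM in DKO. A type 1 dendritic-like group (35 cells, all from the class called type 2 dendritic-like), which carried Clec9a and the chemokine receptor gene Xcr1 of cross-presenting dendritic cells, held 196 and 130 CPM in TKO and 67.3 and 130 CPM in DKO. Kit was low in a group led by the monocyte and macrophage genes Apoe and F13a1 (37 cells) except in 1 library, with 17.7 and 25.8 CPM in TKO and 149 and 39.7 CPM in DKO. A group with T cell genes such as Cd3g (18 cells) held 12.8 to 51.1 CPM. All cells of this group and of the Apoe and F13a1 group came from the class called type 2 dendritic-like. Because the groups were formed from these cells, their differences are descriptions. Without the type 1 group the type 2 class held Kit at 88.4 and 126 CPM in TKO and 121 and 150 CPM in DKO. It was still apart from Ccr7 dendritic-like and NK-like cells. The Apoe and F13a1 group and the group with T cell genes remain in these values. They also remain in the later values without the type 1 group.

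**Figure D2:**
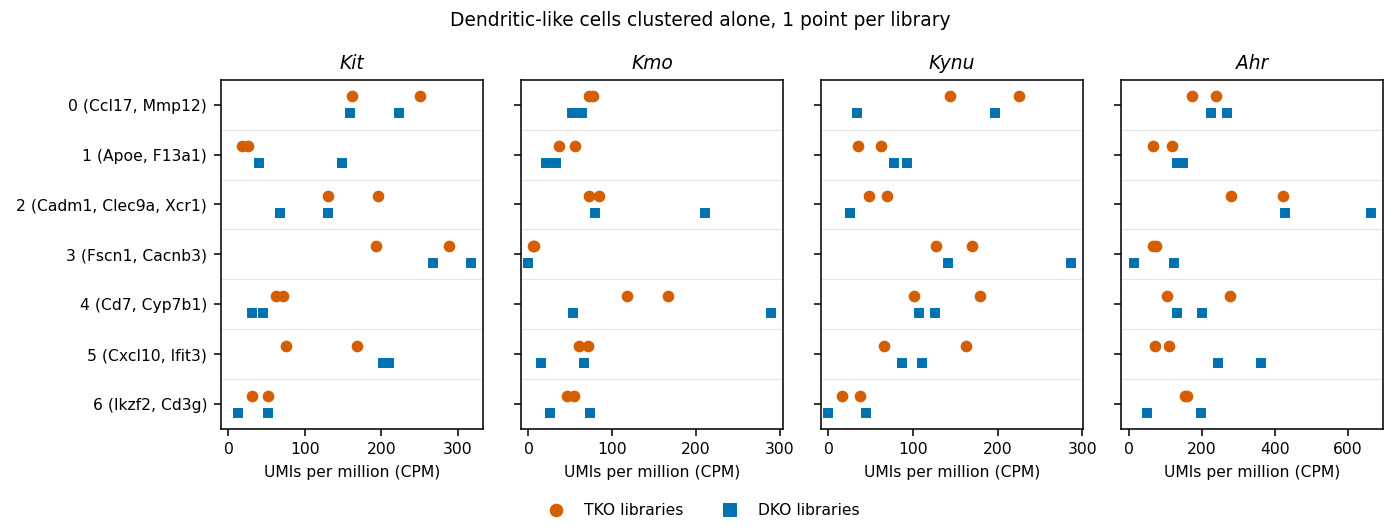
Kit, Kmo, Kynu and Ahr (panels) in groups of dendritic-like cells clustered alone (rows), as CPM on the horizontal axis, with 1 point per library in the colours of its genotype. The Ccr7 group combines Kit of 193 to 318 CPM with Kmo of 0 to 6.78 CPM, and the type 1 dendritic-like group carries Kmo of 72.04 to 210 CPM. Another group of 30 cells carries Kmo of 53.6 to 289 CPM.

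Kitl (chromosome 10, 100015630 to 100100416, plus strand), the ligand gene, was read mainly in epithelial-like, fibroblast-like and endothelial-like cells. Epithelial-like cells, in which Kit was read as well (52 of 201 cells), held 30.04 and 34.4 CPM in TKO and 17.9 and 31.1 CPM in DKO, with 61 of 201 cells positive. Fibroblast-like cells held 16.7 and 35.8 CPM in TKO and 19.8 and 38.8 CPM in DKO, with 62 of 157 cells positive, and the 2 classes overlapped. No other class of the 12 averaged above 3.81 CPM. Endothelial-like cells numbered only 13 but held 29.4% of all 700 Kitl UMIs. They gave 23 and 37 UMIs in TKO and 67 and 79 in DKO, and in each DKO library a single cell carried all of them. The same 13 cells held 29 Kit UMIs.

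Ido1 (chromosome 8, 24584136 to 24597009, minus strand), the entry enzyme of the pathway, was read almost only in epithelial-like cells. Of its 88 UMIs, 84 lay there, and 26 of the 29 positive cells were epithelial-like. The libraries gave 12 and 0 UMIs in TKO and 14 and 58 in DKO, which is 7.67 and 0 CPM against 12.5 and 15.3 CPM. Positive cells made up 11.5% in TKO replicate 1 (95% exact interval 4.35 to 23.4%) and 0 of 26 in TKO replicate 2, which by the limit of 3 counts allows up to 11.5% of cells with a UMI (exact upper bound 13.2%). In DKO they made up 11.4% (3.203 to 26.7%) and 18.2% (10.8 to 27.8%). Both TKO levels lay below both DKO levels, while the shares overlapped (exact permutation p = 0.667, two-sided, where 2 against 2 libraries allow none below 0.33). Such intervals and limits cover counting error only. Single cells weighed heavily: the highest cell held 3 of the 12 UMIs in TKO replicate 1, and 8 of 14 and 25 of 58 in DKO replicates 1 and 2. Ido1 was at 0 UMIs in all 224 dendritic-like cells, in 43 plasmacytoid dendritic-like cells and in 180 macrophage-like cells. By the limit of 3 counts this allows an Ido1 UMI in up to 3.41% and 5.45% of dendritic-like cells in the TKO libraries and 7.89% and 6.98% in the DKO libraries (exact upper bounds 4.11% and 6.49% in TKO, 9.25% and 8.22% in DKO), at median depths of 27278.5 to 31804 UMIs.

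Tdo2 (chromosome 3, 81957090 to 81976202, minus strand), the other entry enzyme, gave 22 UMIs in all. Fibroblast-like cells held 17 of them, with 6 and 5 in TKO and 1 and 5 in DKO, in 11 of 157 cells. Tdo2 was therefore too sparse for the test in any class.

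Within the epithelial-like class, the cells with Kit were set against those with Ido1. Of 201 cells, 8 had both, 44 had Kit only, 18 had Ido1 only and 131 had neither. Cells with both numbered 4 and 0 in TKO and 2 and 2 in DKO. Cells with Ido1 only numbered 2 and 0 in TKO and 2 and 14 in DKO. Kit was found in 30.8% of the 26 Ido1-positive cells, against 25.9% of all 201, and Ido1 in 15.4% of the 52 Kit-positive cells, against 12.9% of all. The libraries differed: 4 of 6 Ido1-positive cells had Kit in TKO replicate 1, against 2 of 4 in DKO replicate 1 and 2 of 16 in DKO replicate 2. Without DKO replicate 2 the share of Ido1-positive cells with Kit was 60.0% (6 of 10), and without TKO replicate 1 it was 4 of 20 cells. The share of Kit-positive cells with Ido1 was 25.0% and 9.5% in the same settings. Depth moved with these counts, with a median of 42863 UMIs in cells with both, 51486.5 with Kit only, 17159 with Ido1 only and 10494 with neither. At or below the median depth of 16811 UMIs, Ido1 was read in 2 of 8 cells with Kit (25.0%) and in 9 of 93 without (9.68%). Above it, Ido1 was read in 6 of 44 cells with Kit (13.6%) and in 9 of 56 without (16.1%). These counts pool the libraries, and with 8 cells in the smallest group they give no order. Kit itself gave 12 and 8 UMIs in TKO and 15 and 81 in DKO, which is 7.67 and 14.5 CPM against 13.4 and 21.4 CPM, and the groups overlapped. It was read in 19.2% (95% exact interval 9.63 to 32.5%) and 19.2% (6.55 to 39.4%) of epithelial-like cells in TKO, against 25.7% (12.5 to 43.3%) and 31.8% (22.3 to 42.6%) in DKO (exact permutation p = 0.33). Median depth of these cells was 10172.5 and 8202 UMIs in TKO, against 20132 and 21763.5 in DKO. With cells thinned to 1000 UMIs (1 cell left out in each TKO library) the Kit shares were 1.96% and 0% in TKO, against 5.71% and 2.27% in DKO.

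**Figure D3:**
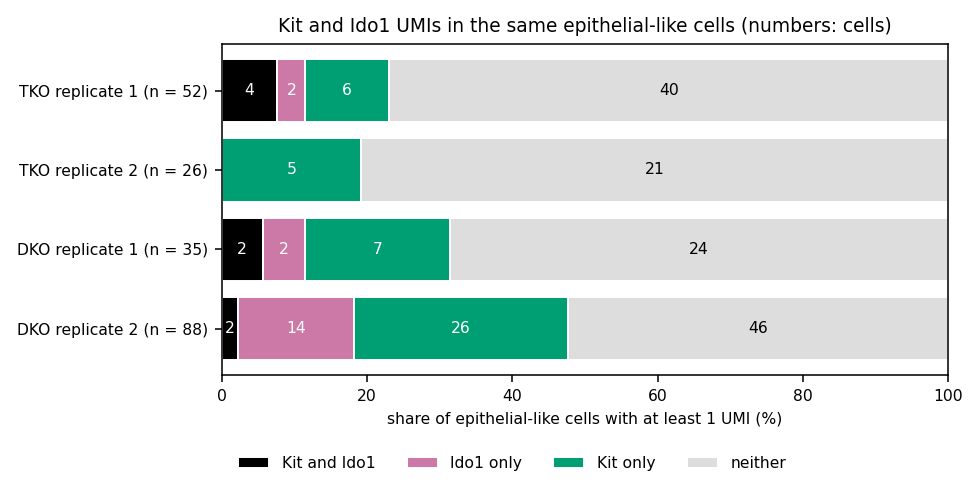
Share of epithelial-like cells with at least 1 UMI of Kit and Ido1, of Kit only, of Ido1 only or of neither (stacked segments, horizontal axis in percent), with 1 bar per library, TKO libraries above DKO libraries, and cell numbers printed in the segments. Cells with both number 4 and 0 in TKO and 2 and 2 in DKO, and most cells of every library have neither.

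At a finer clustering the class parted into 2 clusters, a view added after the data were seen. The cluster led by Psca and the basal keratin gene Krt14 held 16 and 3 cells in TKO and 18 and 39 in DKO. Its Ido1 was 9.33 and 0 CPM in TKO and 8.73 and 16.2 CPM in DKO, and its Kit was 11.7 and 70.0 CPM in TKO and 10.9 and 19.9 CPM in DKO, where the 70.0 CPM rests on 5 UMIs. The cluster led by the secretion genes Svs5 and Svs2 held 36 and 23 cells in TKO and 17 and 49 in DKO. Its name rests on TKO replicate 1, where Svs genes took 22.2% of the cluster's UMIs, against 0.00686% in TKO replicate 2 and 0.00798% and 0.00668% in DKO replicates 1 and 2. Its Kit was 2.83 and 6.23 CPM in TKO, below the 24.9 and 26.7 CPM in DKO, from 2 and 3 UMIs in TKO and 5 and 22 in DKO. Its Ido1 was 5.66 and 0 CPM in TKO and 29.9 and 12.1 CPM in DKO, from 4 and 0 UMIs in TKO and 6 and 10 in DKO. The makeup of the class moved with genotype and library: basal markers (8 genes, none at 0 UMIs) summed to 3911 and 687 CPM in TKO and 2745 and 5086 CPM in DKO, luminal markers (14 genes, 1 at 0) to 9675 and 10967 CPM in TKO and 16362 and 11251 CPM in DKO, and T cell markers (11 genes, none at 0) to 88.8 and 105 CPM in TKO and 19.7 and 60.1 CPM in DKO. Their part in the Kit and Ido1 values was not tested.

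**Figure D4:**
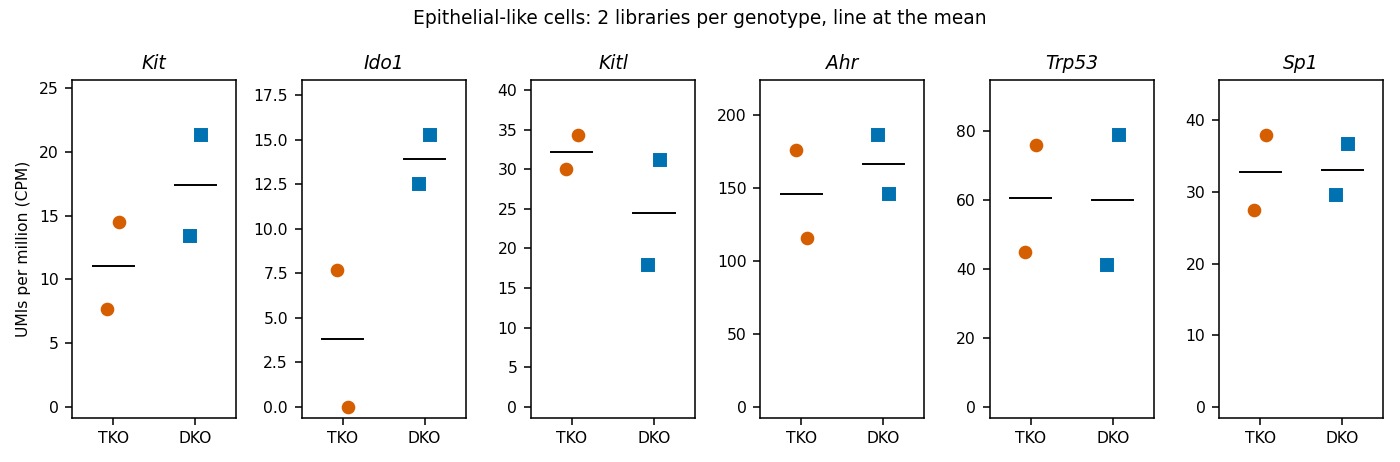
Levels of Kit, Kitl, Ido1, Trp53, Sp1 and Ahr (panels) in epithelial-like cells, as CPM on the vertical axis, with 1 point per library, TKO left of DKO, and a line at the mean of each genotype. Ido1 is at 7.67 and 0 CPM in TKO and at 12.5 and 15.3 CPM in DKO, and the Kit points overlap.

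Kmo (chromosome 1, 175620381 to 175662116, plus strand) and Kynu (chromosome 2, 43555329 to 43682715, plus strand), the enzymes downstream of kynurenine, were read mainly in dendritic cells. Epithelial-like cells, the class with most Ido1, held 11 of the 687 Kmo UMIs and 18 of the 1300 Kynu UMIs. Kmo was highest in plasmacytoid dendritic-like cells, the producers of type I interferon, with 154 and 157 CPM in TKO and 138 and 148 CPM in DKO, and 40 of 43 cells were positive. Type 2 dendritic-like cells held 71.8 and 81.3 CPM in TKO and 106 and 57.8 CPM in DKO, and these 2 classes did not overlap. Without the type 1 dendritic-like group inside it, the type 2 class held Kmo at 71.8 and 79.1 CPM in TKO and 90.4 and 53.4 CPM in DKO. Ccr7 dendritic-like cells had Kmo in only 4 of 35 cells. The Kmo gene overlaps Fh1 on the opposite strand, which had 1865 UMIs against 687 for Kmo.

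Kynu was highest in plasmacytoid dendritic-like cells as well, with 369 and 525 CPM in TKO and 484 and 435 CPM in DKO, and all 43 cells were positive. Ccr7 dendritic-like cells held 188 and 127 CPM in TKO and 287 and 142 CPM in DKO, and type 2 dendritic-like cells 79.7 and 107 CPM in TKO and 59.0 and 122 CPM in DKO. Plasma-like cells, which secrete antibody, held 90.9 and 103 CPM in TKO and 34.4 and 8.48 CPM in DKO, from 20 and 24 UMIs in TKO and 8 and 4 in DKO. NK-like cells held 0 Kynu UMIs in 186 cells. Both enzymes were found together in 40 of 43 plasmacytoid, 91 of 189 type 2 and 3 of 35 Ccr7 dendritic-like cells, in 4 of 180 macrophage-like cells and in 1 of 201 epithelial-like cells. None of these dendritic-like cells held a UMI of Ido1 or Tdo2. Over all cells 45 carried an entry enzyme (Ido1 or Tdo2), 373 carried Kmo or Kynu, and 4 carried both kinds, 2 of them epithelial-like and 1 fibroblast-like. Among the dendritic groups the type 1 dendritic-like group held Kmo in 32 of 35 cells, at 72.04 to 210 CPM, with Kynu at 25.0 to 68.6 CPM, while the Ccr7 group held Kmo at 0 to 6.78 CPM and Kynu at 127 to 287 CPM. Another group (30 cells, all from the type 2 class) held Kmo at 117 and 167 CPM in TKO and 289 and 53.6 CPM in DKO. That was above the type 1 group in every library except DKO replicate 2.

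Ahr (chromosome 12, 35497974 to 35535038, minus strand), the receptor that kynurenine binds, was spread over more classes. Its highest class mean was in type 2 dendritic-like cells, at 197 and 209 CPM in TKO and 258 and 257 CPM in DKO, with 157 of 189 cells positive. Without the type 1 group inside this class Ahr was at 162 and 159 CPM in TKO and 197 and 222 CPM in DKO, which overlapped epithelial-like cells. Epithelial-like cells held 176 and 116 CPM in TKO and 186 and 146 CPM in DKO, with 145 of 201 cells positive, and overlapped macrophage-like cells at 105 and 186 CPM in TKO and 71.5 and 110 CPM in DKO. In the Psca and Krt14 cluster 73 of 76 cells carried Ahr, at 244 and 252 CPM in TKO and 171 and 134 CPM in DKO. The 252 CPM rests on 18 UMIs in 3 cells. The Svs5 and Svs2 cluster went the other way, with 93.3 and 95.6 CPM in TKO and 254 and 189 CPM in DKO, and both orders are descriptions without a test. T-like cells averaged 66.9 CPM and plasma-like cells 12.9 CPM. Among the dendritic groups Ahr reached 281 to 664 CPM in the type 1 dendritic-like group, where 34 of 35 cells were positive. Ahr overlaps Gm48236 on the opposite strand, which had 202 UMIs against 4316 for Ahr.

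Trp53 (chromosome 11, 69580359 to 69591873, plus strand) and Sp1 (chromosome 15, 102406143 to 102436404, plus strand), the 2 transcription factor genes, were read in every one of the 12 classes, and each class overlapped its neighbour in the order. Trp53 ran from a mean of 24.9 CPM in neutrophil-like cells to 96.9 CPM in NK-like cells, where it was 84.0 and 85.5 CPM in TKO and 121 and 97.5 CPM in DKO. In epithelial-like cells it was 44.7 and 76.0 CPM in TKO and 41.2 and 78.8 CPM in DKO. Sp1 ran from 30.1 CPM in fibroblast-like cells to 59.4 CPM in an unnamed cluster led by Cd163l1 and Trdc. In epithelial-like cells Sp1 was 27.5 and 38.0 CPM in TKO and 29.6 and 36.7 CPM in DKO, with each genotype spanning nearly the same range.

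UMIs summed over all cells of a library were compared next, TKO over DKO. In such sums fewer cells of a type and less RNA per cell cannot be told apart. Of the 9 genes 8 were tested and none passed an edgeR adjusted p of 0.05, against a background of 0% of 15466 genes. At an unadjusted p under 0.05 edgeR gave 3 of the 8 and 11.8% of all genes, and DESeq2 called 0 of 9 with 2 at that level. Ido1 gave 15 and 1 UMIs in TKO and 14 and 58 in DKO, a log2 fold change of -2.46 ± 0.86 (SE, n = 2 libraries each, edgeR adjusted p = 0.37). Kitl was at 8.6 and 11.8 CPM in TKO and at 13.4 and 20.1 CPM in DKO (-0.77 ± 0.27, edgeR adjusted p = 0.36). Kynu was at 26.4 and 30.5 CPM in TKO and at 20.4 and 21.0 CPM in DKO (0.41 ± 0.15, edgeR adjusted p = 0.38). The CPM of the genotypes did not overlap for these 3 genes, nor for Kmo and Ahr, which is 5 of the 9, against 44.3% of all 18683 genes with at least 10 UMIs. Epithelial-like cells, which held 95.5% of the Ido1 UMIs, were the smaller share of cells in both TKO libraries, as given above, and dendritic-like cells were 7.28% and 6.90% in TKO, against 6.16% and 5.67% in DKO. The part of these shares in the differences was not tested. Over all cells Kit stood at 29.6 and 33.4 CPM in TKO and 30.7 and 32.2 CPM in DKO (-0.05 ± 0.14).

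Within classes, 58 tests of these genes in 14 classes or class groups gave none at an unadjusted edgeR p under 0.05, with adjusted p from 0.661 to 1.0 and log2 fold changes from -1.41 to 1.15. In epithelial-like cells 6 of the genes were tested and 0 passed, against a background of 0% of 9768 genes, and DESeq2 called 0 of 9. Ido1 had the largest difference of the 58 (-1.41 ± 0.84, edgeR adjusted p = 0.84), which was -0.98 without its highest cell and -7.71 without TKO replicate 1, where the other TKO library is at 0 and the fitted value depends on the prior count. Kit differed by -0.79 ± 0.47 (edgeR adjusted p = 0.84) and by -0.45 without TKO replicate 1. Kitl differed by 0.35 ± 0.35 and Ahr by -0.15 ± 0.34, or by 0.30 and -0.66 without that library. Trp53 and Sp1 differed by -0.06 ± 0.38 and -0.06 ± 0.29, or by 0.17 and 0.04 without that library.

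In dendritic-like cells, where most Kit was read, 6 of the genes were tested and 0 passed (0 at an unadjusted p under 0.05 in edgeR), against a background of 0.0354% of 8475 genes. Kit differed by -0.15 ± 0.20, Kmo by -0.01 ± 0.27, Kynu by -0.04 ± 0.22 and Ahr by -0.29 ± 0.16 (edgeR adjusted p = 0.83 for Ahr). Cells with a Kmo UMI were 68.2% and 63.6% in TKO, against 52.6% and 53.5% in DKO, a difference of 12.8 percentage points (exact permutation p = 0.33). That difference was 3.65 points when 2 UMIs were asked for. In plasmacytoid dendritic-like cells (0% of 4179 genes called) Kmo differed by 0.11 ± 0.31 and Kynu by -0.04 ± 0.27. In type 2 and Ccr7 dendritic-like cells alone 0 of 6 and 0 of 3 tested passed (0% called in both). In NK-like cells (0.0131% called) Kit differed by -0.36 ± 0.38, and in fibroblast-like cells (0% called) Kitl differed by -0.23 ± 0.49. None of the tested genes passed in the other sums either, where edgeR called 0.0469% of genes in T- and NK-like cells together, 0.0101% in T-like, 0.011% in neutrophil-like, 0.0264% in macrophage- and monocyte-like and 0.0328% in plasma-like cells, and 0.248% and 0% in the unnamed clusters led by Il1rl1 and by Cd163l1. Taking every pair of one of the 9 genes and a class with at least 10 UMIs, both TKO libraries lay above both DKO libraries in 14 of 69, below them in 9, and overlapped them in 46. The groups failed to overlap in 35.5% of all 124057 such pairs of any gene, so the share among these genes, 23 of 69, was near that background.

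**Figure D5:**
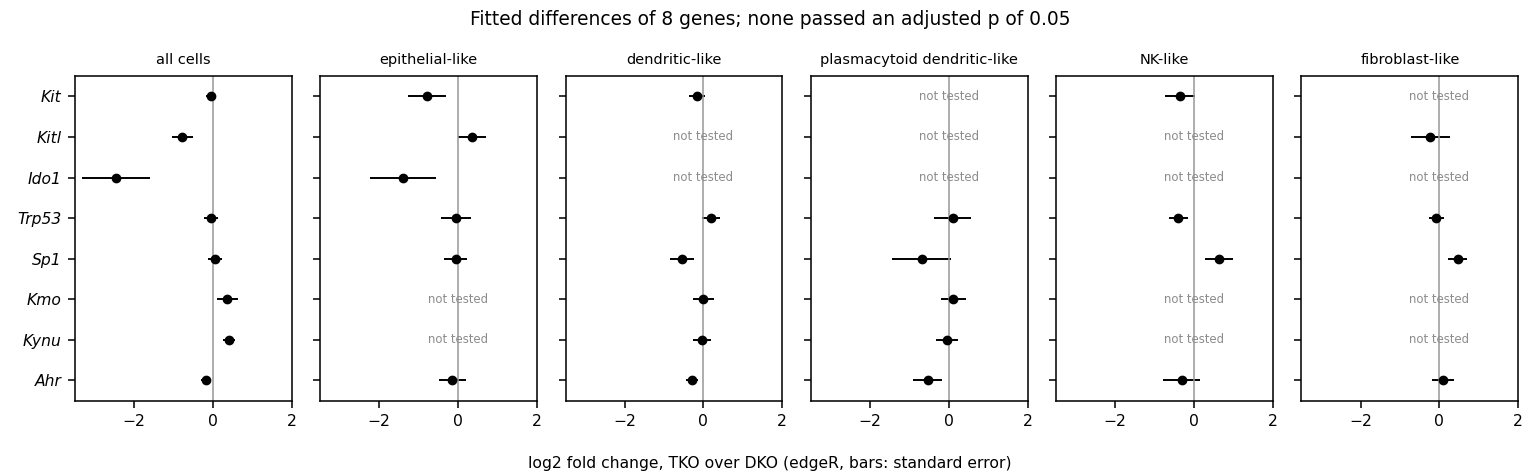
Fitted log2 fold change, TKO over DKO, of 8 genes (rows) in 6 sums of cells (panels), with points for the edgeR estimate, bars for its standard error and a line at 0. Ido1 lies farthest from 0, at -2.46 ± 0.86 over all cells and -1.41 ± 0.84 in epithelial-like cells, and none passed an adjusted p of 0.05.

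Genes around the 9 were read from 7 lists: other tryptophan and kynurenine genes, Ahr partners and targets, Kit signalling, p53 targets, the Sp family, the Pygo and Bcl9 complex, and inducers of Ido1. With all 4 libraries no gene of any list passed in edgeR in epithelial-like cells, in dendritic-like cells or over all cells. In epithelial-like cells the 18 p53 targets were all tested, 13 with a positive and 5 with a negative difference (median log2 0.24, against 0.02 over all genes), and 2 had an unadjusted p under 0.05, a level reached by 5.68% of all 9768 genes. These were Bbc3, the cell death gene for PUMA, with 32.6 and 41.6 CPM in TKO and 9.85 and 15.3 CPM in DKO (1.49 ± 0.35, edgeR adjusted p = 0.76), and Perp, a membrane protein of epithelial junctions, with 97.8 and 83.2 CPM in TKO and 256 and 189 CPM in DKO (-1.27 ± 0.29, edgeR adjusted p = 0.76). Both had groups that did not overlap, in opposite directions. They were named for the smallest p of the list, so the lack of overlap adds no support. Groups failed to overlap in 35.5% of all gene and class pairs with at least 10 UMIs. Without TKO replicate 1 they were at 1.53 and -1.56, and the list's median was -0.02, with 9 of 18 positive. Inducers of Ido1 had 9 of 11 tested, 6 positive and 3 negative (median 0.09). The interferon kinase gene Jak1 had 189 and 228 CPM in TKO and 126 and 121 CPM in DKO (0.75 ± 0.22, edgeR adjusted p = 0.81). The interferon-induced factor gene Irf1 had 116 and 154 CPM in TKO and 88.7 and 82.0 CPM in DKO (0.64 ± 0.23, edgeR adjusted p = 0.84). In both cases each TKO library lay above each DKO library, and neither passed. Jak1 and Irf1 too were named for the smallest p of their list, so this order adds no support. Without TKO replicate 1 Jak1 was at 0.74, Irf1 at 0.71 and the list's median at 0.04 over 10 tested.

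The other lists in epithelial-like cells were small or mixed. Kit signalling genes had 12 of 13 tested, 8 positive and 4 negative (median 0.14), with the transcription factor gene Gata2 at 23.6 and 38.0 CPM in TKO and 17.0 and 7.12 CPM in DKO (1.41 ± 0.53). The 3 other Sp factors were all positive (median 0.23), led by Sp4 with 23.6 and 54.3 CPM in TKO and 16.1 and 11.3 CPM in DKO (1.45 ± 0.46, edgeR adjusted p = 0.82). Other kynurenine genes had 5 of 16 tested, 4 positive and 1 negative (median 0.30), and Ahr partners and targets 4 of 9, 1 positive and 3 negative (median -0.40). Aldh1a3, a retinal-oxidising enzyme gene, was at 196 and 36.2 CPM in TKO and at 313 and 307 CPM in DKO (-1.30 ± 0.80, edgeR adjusted p = 0.84). Without TKO replicate 1 it was at -3.24, a value that rests on 1 TKO library. The Pygo and Bcl9 complex had 4 of 5 tested, 3 positive and 1 negative (median 0.30). Without TKO replicate 1 the medians were -0.14 for Kit signalling, 0.48 for the Sp factors, 0.50 for other kynurenine genes (7 tested), -0.60 for Ahr partners and targets and -0.06 for the Pygo and Bcl9 complex, with Gata2 at 1.63 and Sp4 at 1.89.

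In dendritic-like cells other kynurenine genes had 8 of 16 tested, 4 positive and 4 negative (median 0.00). Afmid, which makes kynurenine from its formyl precursor, had 24.2 and 23.9 CPM in TKO and 10.2 and 10.6 CPM in DKO (1.25 ± 0.34, edgeR adjusted p = 0.37). Kit signalling genes had 12 of 13 tested, 4 positive and 8 negative (median -0.17), with the Kit-binding inhibitor gene Socs6 at 11.9 and 6.30 CPM in TKO and 23.2 and 18.2 CPM in DKO (-1.08 ± 0.41). The p53 targets had 12 of 18 tested, 7 positive and 5 negative (median 0.15), the 3 other Sp factors were all negative (median -0.38), and the inducers of Ido1 had 10 of 11 tested, 5 each way (median 0.02). Ahr partners and targets had 3 of 9 tested, 1 positive and 2 negative (median -0.27), and the Pygo and Bcl9 complex 4 of 5, 1 positive and 3 negative (median -0.40). In Ccr7 dendritic-like cells, where Kit was highest, Il4i1, an enzyme that oxidises aromatic amino acids, stood at 449 and 659 CPM in TKO and 306 and 630 CPM in DKO.

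Over all cells the inducers of Ido1 were positive in 11 of 11 (median 0.16, against -0.02 over all genes) and p53 targets negative in 15 of 18 (median -0.26). Perp was at 14.4 and 9.23 CPM in TKO, against 34.4 and 53.5 CPM in DKO (-1.92 ± 0.31, edgeR adjusted p = 0.21), and epithelial-like cells, which carry it, differed in share the same way, a part that was not tested. The kinase gene Fyn was at 309 and 331 CPM in TKO, against 202 and 203 CPM in DKO (0.61 ± 0.13, edgeR adjusted p = 0.26). T-like cells numbered 232 and 221 in TKO, against 43 and 115 in DKO, and their part in these sums was not tested. Kit signalling genes were positive in 9 of 13 (median 0.18), other kynurenine genes in 9 of 12 tested (median 0.21), other Sp factors in 3 of 3 (median 0.30), the Pygo and Bcl9 complex in 1 of 5 (median -0.22) and Ahr partners and targets in 3 of 7 tested (median -0.03).

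Genes with the most similar pattern were sought among 13431 genes over 48 sums (12 classes in 4 libraries, log2 of CPM plus 10). The points share libraries, so Pearson's r is a description. Ido1 was most like Gpa33, Clca1 and Clic3 (r = 0.98, 0.97 and 0.97). It was almost at 0 outside epithelial-like cells, so its r rests on few points. By Spearman's rank correlation the 3 genes were at 0.60, 0.52 and 0.37, in places 22, 81 and 783. Kmo was most like the lectin receptor genes Cd209d and Clec9a (0.95 each) and Hrh1 (0.93). Kynu was most like Flt3, the growth factor receptor gene of dendritic cells, at 0.90, Spib at 0.89 and Trim11 at 0.87. Kitl was most like Arhgef17 (0.95), Nr2f2 (0.94) and Rhbdf1 (0.93), Kit like Klri1 (0.86), Tmem120b (0.85) and Zfp366 (0.83), and Trp53 like Serbp1 (0.86). Sp1 was most like Yy1, at a lower r of 0.71. Between the 9 genes themselves Kmo and Kynu were the closest pair (r = 0.76), and Kit and Ido1 were at -0.03.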

How the data were processed

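Per the labels' protocols, enzymatic dissociation was followed by red cell lysis and by removal of Annexin V-positive cells, and hashtagged samples were combined before 10x 3-prime v3.1 libraries were made, so cell shares describe what survived these steps. The submitters' processing notes name Cell Ranger 7.0.0, STAR and the build mm10. Raw UMI counts per gene and cell were deposited, per the file headers. Whether intronic reads were counted is not given in the sources used here. Each matrix has 32285 genes beside 6 hashtags, and the mm10 annotation held 32158 of the gene IDs.

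A cell was kept with 200 genes or more and a mitochondrial share of 20% or less. Clustering used scanpy 1.11.5 and leidenalg 0.10.2 (2000 variable genes, 30 components, 20 neighbours, resolution 1.0) without the 9 genes. A cluster was named where at least 3 markers were raised by 1.0 on the log2 scale and its score exceeded 0.5. Unnamed clusters are called by their leading genes. Scrublet marked only 2 cells (0.059%), which gives no usable doublet rate, and no cell was removed as a doublet. Counts were summed per class and library where each library had at least 5 cells, and tested with edgeR 4.0.16 in R 4.3.3 (TMM, filterByExpr, robust quasi-likelihood, Benjamini-Hochberg adjustment over all genes at 0.05). DESeq2 1.42.0 was an alternative. Shares of cells were compared by exact permutation tests. No library was a copy of another (chi-square of counts over its degrees of freedom 24.2 to 67.2). The tests were tested on simulated data.

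The 9 genes and the lists were chosen with earlier results of these data known. Besides the 9 genes, named genes are the list genes with the smallest p in a class, the highest list genes of classes, and the 3 genes most like each of the 9. Alternatives were other size factors, no filter on low counts, a replicate block, leaving out a library, other cell filters, other resolutions, thinned cells and 2 UMIs per positive cell. Leaving the type 1 dendritic-like group out of the type 2 class, and a library out of the Kit and Ido1 co-detection counts, was chosen after seeing the data. Some results are not reported here.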

Additional observations from a re-analysis of the deposited data

Results flagged for a closer look

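Some genes had both TKO libraries above both DKO libraries in one class and below them in another, and the difference between classes was not tested. Trp53 did so over 5 classes, with TKO above DKO in plasma-like and type 2 dendritic-like cells and below it in NK-like cells, fibroblast-like cells and the unnamed cluster led by Il1rl1 and Tnfrsf4. Sp1 did so over 4 classes, with TKO above DKO in NK-like, fibroblast-like and macrophage-like cells and below it in Ccr7 dendritic-like cells. Kmo did so over 2 classes, with TKO above DKO in plasmacytoid dendritic-like cells and below it in T-like cells. The groups failed to overlap in 35.5% of all gene and class pairs with at least 10 UMIs.

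The 127 barcodes left out by the filter on genes and mitochondrial share also held UMIs of these genes: 6 of Kit, 17 of Kitl, 17 of Trp53, 13 of Sp1, 4 of Kmo and 20 of Ahr. They enter no comparison.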

How the results depend on the processing

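No alternative brought any of the 9 genes past the threshold (174 counts over 15 sums of cells). Of 314 refitted log2 fold changes 290 kept their sign, and the lowest adjusted p among them was 0.131, for Ido1 in epithelial-like cells without TKO replicate 1. Leaving out each library in turn gave ranges for Kit of -0.12 to 0.06 over all cells, -0.37 to 0.05 in dendritic-like and -1.20 to 0.12 in NK-like cells, for Trp53 of -0.25 to 0.23 over all cells and -0.43 to 0.45 in epithelial-like cells, for Sp1 of -0.06 to 0.21 and -0.19 to 0.06 in the same sums, for Ahr of -0.66 to 0.17 in epithelial-like cells, for Kitl of -0.83 to 0.38 in fibroblast-like cells, for Kmo of -0.33 to 0.39 in dendritic-like cells, and for Kynu of -0.34 to 0.22 in plasmacytoid dendritic-like and -0.26 to 0.23 in dendritic-like cells. Ido1 ranged from -4.75 to -1.62 over all cells and Kit from -1.12 to -0.42 in epithelial-like cells, without a change of sign. A strict cell filter put Kynu in plasmacytoid dendritic-like cells at 0.02.

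TKO minus DKO shares of positive cells turned sign in 13 of 62 alternatives. Kit in dendritic-like cells was -3.94 points when thinned, -4.15 at 2 UMIs and -4.30 to 8.98 when a library was left out. Kynu there was -2.39, -7.74 and -7.88 to 10.97 in the same settings. Ahr in epithelial-like cells was 4.14 when thinned. In the Psca and Krt14 cluster the Kit difference was 32.69 and the Ahr difference 5.34. Both rest in part on the 3 cells of TKO replicate 2, all of them positive for Kit and for Ahr. Without a library Kit in NK-like cells ranged from -10.56 to 6.01 and Kitl in fibroblast-like cells from -15.87 to 0.86. The cause was not tested in any of these cases.

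In epithelial-like cells list medians ranged, when each library was left out, from -0.14 to 0.27 for Kit signalling, -0.06 to 0.46 for the Pygo and Bcl9 complex, -0.02 to 0.34 for p53 targets, -0.02 to 0.12 for inducers of Ido1 and -0.09 to 0.50 for other kynurenine genes. Aldh1a3 ranged from -3.24 to -0.57, with the lowest value without TKO replicate 1, where 1 TKO library is left. The share of Ido1-positive cells with Kit reached 60.0% without DKO replicate 2. Without the type 1 dendritic-like group the mean Ahr of type 2 dendritic-like cells was 185 CPM in place of 230 CPM.

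The replicate numbers are shared by the genotypes, and deviations of same-numbered libraries did not move together (r = 0.076 over 15478 genes). With 2 libraries per genotype, whose cell makeup also differed, this cannot tell whether same-numbered libraries share a batch. With the replicate block Trp53 in epithelial-like cells was at 0.03 and Kmo in dendritic-like cells at 0.01. Over all cells the block raised the count of called genes of any kind from 0 to 6, no filter on low counts to 276 and DESeq2 to 361, and in epithelial-like cells the last 2 gave 247 and 39, none of them among the 9 genes. Depth limits Ido1 and Tdo2 most, with 88 and 22 UMIs in all.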
